A study of Mus musculus with 3 samples.

Results

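The 8 genes described here write, erase and read the methyl mark on cytosine in DNA: *Dnmt1*, *Dnmt3a*, *Dnmt3b*, *Uhrf1*, *Tet1*, *Tet2*, *Tet3* and *Mbd2*. They were taken by symbol from 25759 genes counted in each library, of which 22044 had an exon length above 0. All 8 were present and none was dropped for its level. TFR cells, follicular regulatory T cells, were sorted from spleen and mesenteric lymph node by CD4, CXCR5, high GITR and the GFP of the *Prdm1* reporter, without B220, and 1 poly(A) library was sequenced for each of 3 genotypes. The mice, male or female on a C57BL/6J background, had received 125 µg NP-KLH in alum with a boost on day 7, and cells were sorted on day 10. Neither the age of the mice nor the number behind a library is given in the sources used here.

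The genotype behind the library labelled N is written Nfatc1 fl/fl.Prdm1 gfp/+.FIC. That of the library labelled αA is Nfatc1 caaA.Prdm1 gfp/+.FIC, and that of the library labelled PαA is Nfatc1 caaA.Prdm1 gfp/fl.FIC. FIC is a Cre recombinase made from the *Foxp3* locus, so floxed sequence is removed, and the constitutively active NFATc1/αA is switched on, in Foxp3+ cells. All 3 groups carry FIC and 1 gfp allele of *Prdm1*, the gene of Blimp-1. αA against N therefore sets the overexpressing label beside the deficient label, PαA against αA adds the floxed *Prdm1* allele, and PαA against N differs in both. The first and second comparisons share the αA library, and the last shares a library with each of them, so their values are given side by side and are not independent. Each genotype has a single library, so no test across genes could be made and no p-value is printed. The intervals printed are exact 95% intervals on read counts. They cover counting error only, since the reads carry no molecular identifiers, and they compare libraries and not genotypes.

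The library totals behind the RPKM values (exon reads divided by exon length and by the size of the library) were 29726219, 27239921 and 25465829 for N, αA and PαA. *Nfatc1* had 63.6 RPKM in N, 62.9 in αA and 32.4 in PαA, so it was not lower under the deficient label than under the overexpressing ones. These are reads over the whole gene and do not show whether floxed sequence was removed. Deletion and overexpression were not tested, and the names of the libraries are labels only. *Prdm1* had 25.6, 24.9 and 10.0 RPKM, lowest in PαA, the label with the floxed *Prdm1* allele. *Cd4*, *Cd3e*, *Foxp3*, *Cxcr5* and *Tnfrsf18*, markers of CD4 T cells, regulatory T cells and the sort gates, had reads in every library, with *Foxp3* at 32.7, 20.9 and 15.3 RPKM. Markers of other cells were present too. The summed RPKM was 114, 126 and 168 over 11 genes of B and plasma cells, 326, 231 and 324 over 10 myeloid genes, and 205, 288 and 492 over 8 genes of CD8 T and NK cells. Of these genes only *S100a9* in αA was at 0 reads. In bulk RNA fewer cells of a type and less RNA per cell cannot be told apart, and the part of these other cells in the values below was not tested.

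DNA methylation is laid down de novo by DNMT3A and DNMT3B and copied at replication by DNMT1, which UHRF1 brings to hemimethylated sites. The TET dioxygenases oxidise 5-methylcytosine and so open the way to its removal, and MBD2 binds methylated CpG and recruits the NuRD corepressor complex. In regulatory T cells the enhancers of *Foxp3* and of a group of other lineage genes are held demethylated, and TET proteins are known to keep *Foxp3* stably expressed.

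Promoter windows (250 bases before to 50 after a RefSeq start, GRCm38.p6) were found for 7 of the 8 genes and give 12 windows. The window of *Mbd2* was not used here. The sequences below are the parts upstream of 5 starts that lie outside annotated exons, shown because *Dnmt1*, *Uhrf1* and *Dnmt3a* carry the largest read numbers among the writers and their partner. Capitals mark GGAAA, the core of NFAT sites, GAAAG, the core of Blimp-1 sites, and TTTCGCGC or TTTGGCGC, forms of the E2F site, on either strand. GGAAA and GAAAG overlap where GGAAAG occurs.
Dnmt3a, start 1, chr12:3806730-3806979, plus strand: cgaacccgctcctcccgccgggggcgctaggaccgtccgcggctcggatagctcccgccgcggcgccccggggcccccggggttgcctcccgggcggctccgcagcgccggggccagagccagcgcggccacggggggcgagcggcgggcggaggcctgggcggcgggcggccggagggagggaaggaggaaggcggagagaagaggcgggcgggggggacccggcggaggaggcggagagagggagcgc
Dnmt1, start 1, chr9:20959889-20960138, minus strand: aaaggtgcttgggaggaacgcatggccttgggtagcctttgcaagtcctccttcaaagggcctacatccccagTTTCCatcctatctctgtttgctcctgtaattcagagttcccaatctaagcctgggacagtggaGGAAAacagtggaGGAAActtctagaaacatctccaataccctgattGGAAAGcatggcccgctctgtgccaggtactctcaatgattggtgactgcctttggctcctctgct
Dnmt1, start 3, chr9:20952624-20952707, minus strand: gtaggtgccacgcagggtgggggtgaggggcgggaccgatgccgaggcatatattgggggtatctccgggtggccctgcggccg
Uhrf1, start 1, chr17:56303087-56303320, plus strand: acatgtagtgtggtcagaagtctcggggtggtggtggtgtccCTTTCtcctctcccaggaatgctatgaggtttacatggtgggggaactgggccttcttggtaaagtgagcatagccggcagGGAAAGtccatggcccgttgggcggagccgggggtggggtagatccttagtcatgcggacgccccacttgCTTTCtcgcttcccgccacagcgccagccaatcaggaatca
Uhrf1, start 2, chr17:56304063-56304312, plus strand: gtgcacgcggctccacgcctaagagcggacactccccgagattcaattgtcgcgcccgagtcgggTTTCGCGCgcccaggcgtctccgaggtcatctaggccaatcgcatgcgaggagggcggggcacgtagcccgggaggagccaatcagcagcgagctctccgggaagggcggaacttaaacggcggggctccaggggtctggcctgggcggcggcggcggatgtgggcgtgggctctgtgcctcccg
None of the 3 *Dnmt3a* windows held any of these letters, and the window of start 1 had 46 CG dinucleotides against a median of 7 over 32851 windows of all genes. The *Dnmt1* window of start 1 had 2 CG, 4 matches to GGAAA and 1 to GAAAG. That of start 3 had 33 CG, 2 E2F matches and 1 match to GGAAA, all in the part not shown. The *Uhrf1* window of start 1 had 12 CG, 1 match to GGAAA and 3 to GAAAG, and that of start 2 had 33 CG, 1 E2F match and, outside the part shown, 1 match each to GGAAA and GAAAG. An E2F match was present in 2 of the 12 windows and in 0.813% of all windows. GGAAA was present in 5 of the 12 and in 61.3% of all, and GAAAG in 4 of the 12 and in 57.3% of all. These are matches of letters and say nothing of binding in these cells. Reads were counted per gene and not assigned to a start, so which start was used in these cells is not known.

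Of the 8 genes *Mbd2* was highest in every library and lay at percentile 93.4, 93.3 and 94.5 of the genes with reads in N, αA and PαA. *Dnmt1* and *Uhrf1* followed, between percentile 57.1 and 75.0. *Dnmt3a* and *Tet3* stood between 1.06 and 3.71 RPKM, and *Dnmt3b*, *Tet2* and *Tet1* between 0.0264 and 1.13 RPKM. In N the order was *Mbd2*, *Dnmt1*, *Uhrf1*, *Dnmt3a*, *Tet3*, *Tet2*, *Dnmt3b*, *Tet1*, and of neighbours in it only *Tet2* and *Dnmt3b* had overlapping Poisson intervals. In αA *Uhrf1* and *Dnmt1* overlapped, as did *Tet3* and *Dnmt3b*. In PαA *Tet3* and *Dnmt3a* overlapped, and *Dnmt3b*, *Tet2* and *Tet1* each overlapped the next. *Mbd2*, *Dnmt1* and *Uhrf1* alone passed the level the study filtered on, read here as more than 5 RPKM in any library.

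**Figure D1:**
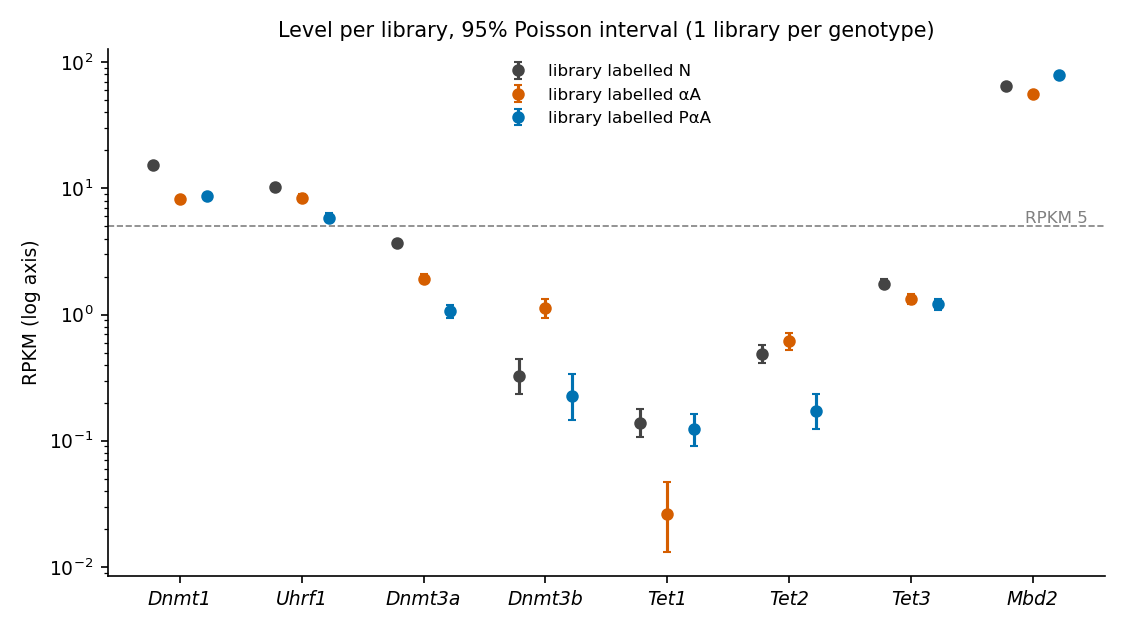
RPKM (log axis) of the 8 genes in the libraries labelled N, αA and PαA, 1 library per genotype, with 95% Poisson intervals. *Mbd2* lies between 56.5 and 79.6, *Dnmt1* and *Uhrf1* between 5.85 and 15.3, and the other 5 genes below the dashed line at 5.

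*Dnmt1* (ENSMUSG00000004099, GRCm38 chr9:20907209-20959888, minus strand, exon length 6301), the maintenance methyltransferase, had 2866, 1401 and 1397 exon reads in the N, αA and PαA libraries, which are 15.3, 8.16 and 8.71 RPKM. N was the high library and the other libraries lay close together. The log2 RPKM ratio was -0.91 (interval -0.9998 to -0.81) for αA against N, which is 1.87-fold lower in αA, and -0.81 (-0.91 to -0.72) for PαA against N. PαA and αA differed by 0.09 (-0.01 to 0.20), an interval that holds 0, and this difference was -0.07 on the TPM scale. Of 3091 genes with an exon length of 4 to 8 kb and an RPKM above 1, 8.51% had a lower ratio of αA to N than *Dnmt1*.

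*Uhrf1* (ENSMUSG00000001228, chr17:56303321-56323486, plus strand, exon length 3744), which recognises hemimethylated CpG, had 1134, 863 and 558 exon reads, or 10.2, 8.46 and 5.85 RPKM in N, αA and PαA. The levels descended in that order with no overlap of Poisson intervals. The log2 ratio was -0.27 (-0.40 to -0.14) for αA against N and -0.53 (-0.69 to -0.38) for PαA against αA. With TMM factors, which scale by the bulk of genes, the first of these was -0.11. *Uhrf1* thus stood at 0.666, 1.04 and 0.672 times the RPKM of *Dnmt1*, and only in αA did their Poisson intervals overlap. Its relative *Uhrf2* had 19.7, 19.1 and 20.5 RPKM, above *Uhrf1* in every library, with log2 ratios between -0.04 and 0.10.

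*Dnmt3a* (ENSMUSG00000020661, chr12:3806007-3914443, plus strand, exon length 11484), a de novo methyltransferase, had 1265, 600 and 310 exon reads, or 3.71, 1.92 and 1.06 RPKM in N, αA and PαA. The 3 libraries did not overlap within counting error. The log2 ratio was -0.95 (-1.09 to -0.81) for αA against N and -0.86 (-1.06 to -0.66) for PαA against αA. PαA was 3.50-fold below N, a log2 ratio of -1.81 (-1.99 to -1.63). The RPKM of the 3 DNMT genes summed to 19.3, 11.2 and 9.99, of which *Dnmt3a* made 19.2%, 17.1% and 10.6%. The RPKM of *Dnmt1* was 4.13 times that of *Dnmt3a* in N, 4.26 times in αA and 8.21 times in PαA.

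*Dnmt3b* (ENSMUSG00000027478, chr2:153649450-153687730, plus strand, exon length 4326), the other de novo methyltransferase, had 42, 133 and 25 exon reads, or 0.327, 1.13 and 0.227 RPKM. αA was the high library, and N and PαA overlapped. The log2 ratio was 1.79 (1.28 to 2.33) for αA against N, -2.31 (-2.99 to -1.69) for PαA against αA and -0.53 (-1.30 to 0.22) for PαA against N. Between 76.0% and 88.0% of its exon reads matched a single place, against at least 98.4% for the other genes, so its share with near-identical sequence is uncertain. *Dnmt3l*, the regulatory relative without a catalytic domain, had 0 reads in all 3 libraries.

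The 3 TET genes together had 2.38, 1.96 and 1.503 RPKM in N, αA and PαA, and *Tet3* made between 67.5% and 80.3% of that sum. *Tet3* (ENSMUSG00000034832, chr6:83362373-83459084, minus strand, exon length 11817) had 617, 427 and 363 exon reads, or 1.76, 1.33 and 1.21 RPKM. N was the high library, and αA and PαA overlapped. The log2 ratio was -0.41 (-0.59 to -0.22) for αA against N, -0.14 (-0.34 to 0.07) for PαA against αA and -0.54 (-0.73 to -0.35) for PαA against N, and all 3 changed sign once centred on genes of its length, to 0.11, 0.15 and 0.30.

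*Tet2* (ENSMUSG00000040943, chr3:133463679-133545139, minus strand, exon length 9298) had 135, 155 and 41 exon reads, or 0.488, 0.612 and 0.173 RPKM. PαA was the low library, and N and αA overlapped. The log2 ratio was 0.33 (-0.02 to 0.67) for αA against N, -1.82 (-2.36 to -1.32) for PαA against αA and -1.50 (-2.04 to -0.98) for PαA against N. *Tet1* (ENSMUSG00000047146, chr10:62804570-62908996, minus strand, exon length 15288) had 63, 11 and 48 exon reads, or 0.139, 0.0264 and 0.123 RPKM. αA was the low library, at a log2 ratio of -2.39 (-3.47 to -1.46) to N, and PαA against αA was 2.22 (1.26 to 3.32). For PαA against N the ratio of *Tet1* was -0.17 (-0.74 to 0.40), with a positive sign under TMM factors (0.06) and after centring on length (0.80).

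*Mbd2* (ENSMUSG00000024513, chr18:70568189-70626131, plus strand, exon length 2573), the methyl-CpG reader, had 4932, 3957 and 5217 exon reads, or 64.5, 56.5 and 79.6 RPKM in N, αA and PαA. PαA was highest and αA lowest. The log2 ratio was -0.19 (-0.25 to -0.13) for αA against N, 0.50 (0.44 to 0.56) for PαA against αA and 0.30 (0.25 to 0.36) for PαA against N. It was the only one of the 8 genes above N in PαA on the RPKM scale. Under TMM factors the first ratio was -0.03.

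**Figure D2:**
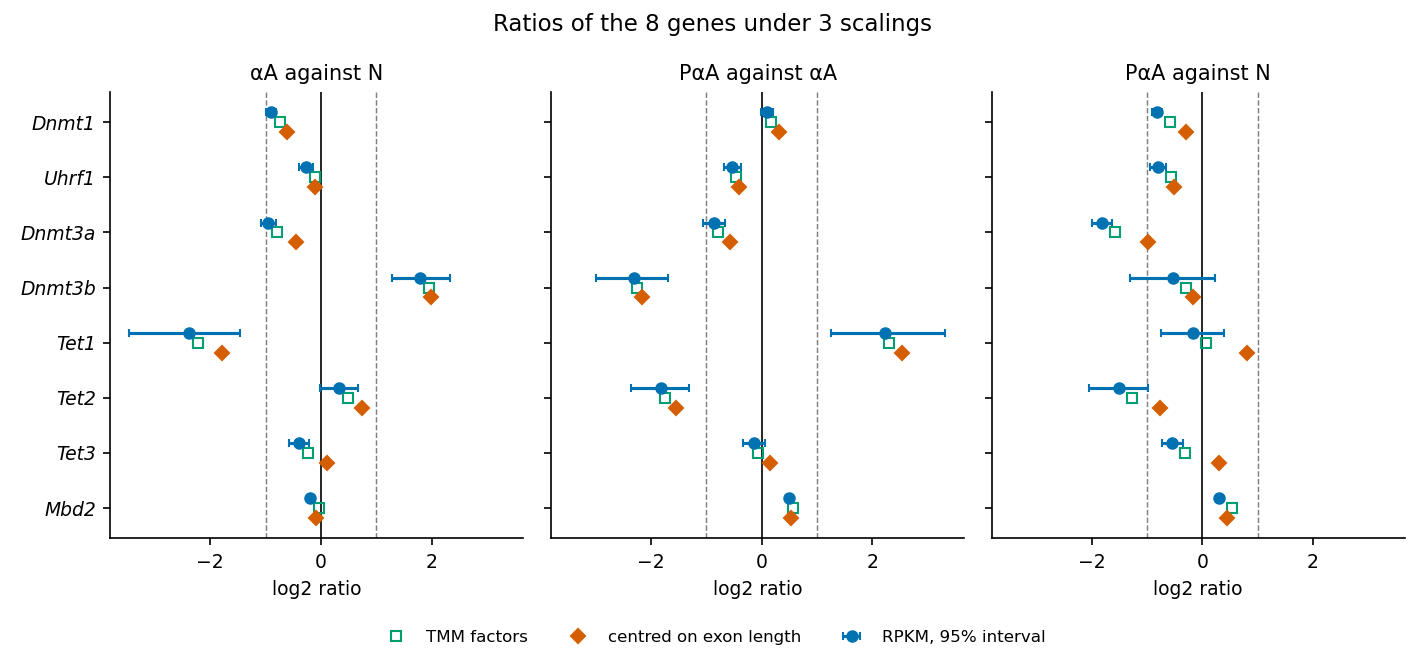
Log2 ratios of the 8 genes in the 3 comparisons: circles from RPKM with exact 95% counting intervals, squares with TMM factors, diamonds after centring on exon length. Dashed lines mark 2-fold. *Dnmt3a* is below 0 in each panel under all 3 scalings, and *Tet3* crosses 0 after centring on length in each panel.

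Of the 3 genes above RPKM 5, none passed 2-fold in αA against N, where 4.25% of 7017 genes did, in PαA against αA (4.63%) or in PαA against N (10.3%). At 1.5-fold 1 passed in αA against N, *Dnmt1* (background 14.1%), none in PαA against αA (14.7%), and 2 in PαA against N, *Dnmt1* and *Uhrf1* (28%), all lower. Both calls in PαA against N ended under TMM factors (-0.58 and -0.57), median-of-ratios factors (-0.57 and -0.56) and centring on exon length (-0.29 and -0.51), all log2 ratios, of which the first lay just short of 1.5-fold. Among the 6 genes above RPKM 1, *Dnmt3b* passed 2-fold in αA against N (background 9.53% of 10262 genes) and in PαA against αA (9.9%), and *Dnmt3a* passed in PαA against N (16.7%). *Dnmt3b* exceeded RPKM 1 only in αA, the library where it was high, so its place among these 6 genes rests on the value compared. *Dnmt3a* is longer than 8 kb, and 36.1% of 632 such genes above RPKM 1 were more than 2-fold lower in PαA than in N. Its log2 ratio in that comparison stayed past 2-fold with TMM factors (-1.58) and fell short of it once centred on exon length (-0.97). In αA 6 of the 8 genes were lower than in N, with a median log2 ratio of -0.34. Of the 7017 genes above RPKM 5, a level that only 3 of the 8 passed, 68.1% were lower and the median was -0.14. These 3 alone had medians of -0.27, 0.09 and -0.80 in αA against N, PαA against αA and PαA against N. In PαA against αA 5 of 8 were lower, beside 56.9% of all genes, and the medians were -0.33 and -0.06. In PαA against N 7 of 8 were lower, beside 66.4% of all genes, and the medians were -0.67 and -0.19. Centred on genes of the same exon length, 5, 4 and 5 of the 8 were lower in the 3 comparisons. TMM factors set the medians of all genes at 0.02, 0.01 and 0.04 in the 3 comparisons, and 6, 5 and 6 of the 8 genes were then lower.

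The ratios of all genes depended on exon length. For αA against N the median log2 ratio was -0.04 over genes up to 2 kb and -0.45 over the 632 genes above 8 kb. For PαA against αA these medians were 0.12 and -0.28, and for PαA against N 0.07 and -0.78. *Dnmt3a*, *Tet1*, *Tet2* and *Tet3* are all longer than 8 kb. Among the genes above 8 kb 15.5% had a lower ratio of αA to N than *Dnmt3a*, 9.81% a lower ratio of PαA to αA and 4.91% a lower ratio of PαA to N. For *Tet3* these shares were 55.2%, 65.2% and 67.9%, so it lay near or above the middle of genes of its length. Centred on genes of the same exon length, the ratio of *Dnmt3a* was -0.45 for αA against N, -0.57 for PαA against αA and -0.97 for PαA against N, and that of *Dnmt1* was -0.62, 0.32 and -0.29. What gives the dependence on length was not tested.

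**Figure D3:**
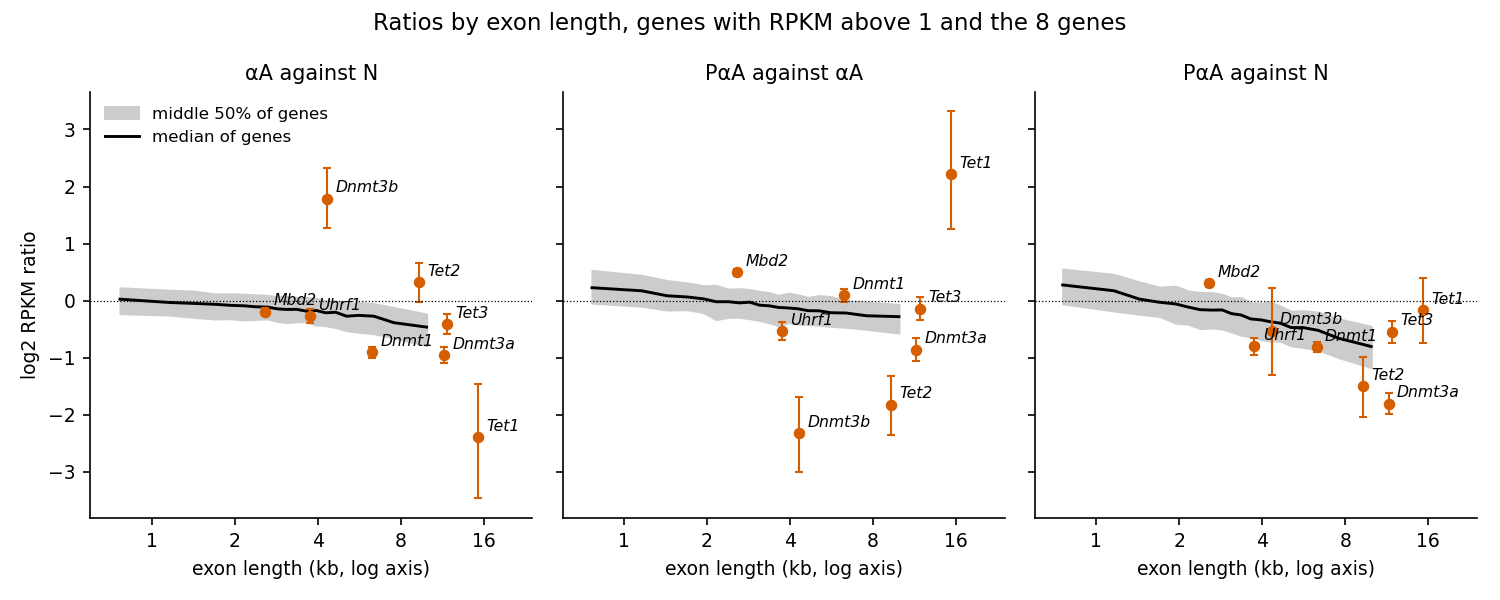
Log2 RPKM ratio against exon length (kb, log axis). The line and grey band give the median and the middle 50% of genes with RPKM above 1 in 20 bins of length, and the points the 8 genes with exact 95% counting intervals. The line descends with length in each panel, and *Dnmt3a* lies below the lower edge of the band's long end in each panel while *Tet3* lies above *Dnmt3a* in each.

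Reads across exon-exon junctions, which come from spliced RNA, made 39.6%, 37.0% and 37.6% of the exon reads of *Dnmt1* in N, αA and PαA, and between 25.3% and 32.1% for *Uhrf1* and *Mbd2*. For *Dnmt3a* the share was 20.9% (exact binomial interval 18.7 to 23.2) in N, 20.5% (17.3 to 24.0) in αA and 11.6% (8.27 to 15.7) in PαA, from 264, 123 and 36 reads. All genes above 8 kb together stood at 19.4%, 18.8% and 19.5%, so the share of *Dnmt3a* in PαA was below that of its length class. By junction reads alone, scaled to the same library totals, the log2 ratio of *Dnmt3a* was -0.98 (-1.30 to -0.66) for αA against N, -1.68 (-2.25 to -1.13) for PαA against αA and -2.65 (-3.20 to -2.15) for PαA against N. Its longest coding transcript in GENCODE M21 has 22 junctions in 9685 bases, of which 69.2% are 3' untranslated, and that of *Dnmt1* has 38 in 5870 bases.

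*Tet3* had 32, 10 and 5 junction reads, and *Tet2* had 8, 18 and 0. By junction reads, scaled as for *Dnmt3a*, the log2 ratio of *Tet3* was -1.55 (-2.74 to -0.49) for αA against N. It was -0.90 (-2.80 to 0.78) for PαA against αA and -2.45 (-4.17 to -1.08) for PαA against N. The exon read ratios of *Tet3*, -0.41, -0.14 and -0.54, lay above the first and last of these intervals, which rest on few reads. *Tet1* had 0 junction reads among 122 exon reads of the 3 libraries, which allows a share of up to 2.46%. Its longest coding transcript has 12 junctions in 14369 bases, and its exon reads give no evidence of spliced *Tet1* RNA at this depth.

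Intron reads made 16.2% of the gene reads of *Dnmt3a* in N, 30.2% in αA and 31.6% in PαA, from 245, 260 and 143 reads. N and αA thus held like numbers of intron reads, with a log2 ratio per library total of 0.21 (-0.05 to 0.47), while exon reads were lower in αA. PαA against αA was -0.77 (-1.07 to -0.47) for its intron reads. Over all genes the log2 ratio of intron reads was 0.56 for αA against N and -0.45 for PαA against αA. For *Tet3* the intron share was 11.7%, 28.0% and 22.8%, from 82, 166 and 107 reads. For *Tet1* it was 4, 44 and 17 reads, so that αA, lowest in exon reads, was highest in intron reads. For *Tet2* the numbers were 74, 76 and 65, alike in the 3 libraries although exon reads were lowest in PαA. The share over all genes above 8 kb was 7.34%, 11.4% and 11.3%. Genomic DNA and unspliced RNA cannot be told apart in these counts, and whether strand was used in counting is not given in the sources used here.

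**Figure D4:**
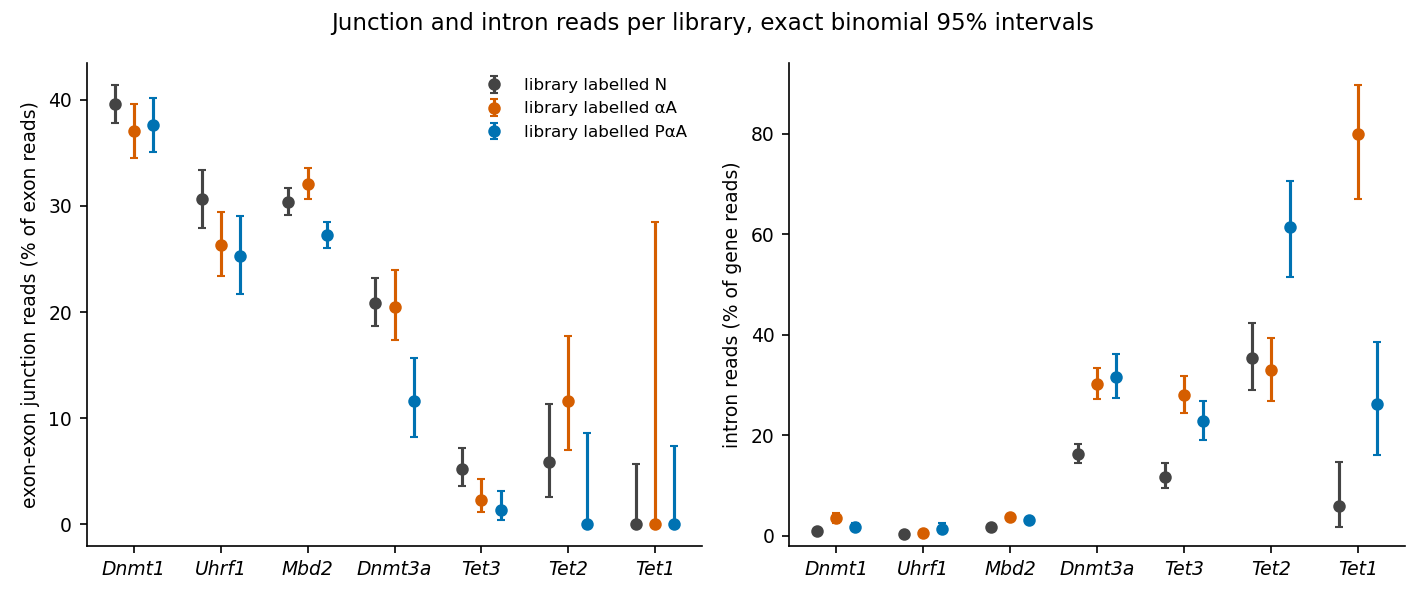
Left, exon-exon junction reads as a percentage of exon reads. Right, intron reads as a percentage of gene reads (exon plus intron). Points are the libraries labelled N, αA and PαA, bars exact binomial 95% intervals. The *Dnmt3a* junction share is 11.6% in PαA against 20.9% in N, and the *Tet1* intron share is 80.0% in αA.

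The other genes of the pathway were taken from 7 lists of partners, readers, repair enzymes and cofactor supply. Of their genes 53 exceeded 5 RPKM in some library. In αA against N 2 were more than 2-fold lower and none higher, and 7 were more than 1.5-fold lower. In PαA against αA none passed 2-fold and 4 were more than 1.5-fold lower. In PαA against N 5 were more than 2-fold lower and 22 more than 1.5-fold lower, and none was higher. The shares past 2-fold were thus 3.77%, 0% and 9.43% in the 3 comparisons, below the backgrounds of 4.25%, 4.63% and 10.3%. The shares past 1.5-fold were 13.2%, 7.55% and 41.5%, beside backgrounds of 14.1%, 14.7% and 28%. The median log2 ratios were -0.25, -0.23 and -0.44. With TMM factors these medians were -0.09, -0.16 and -0.21, and the genes more than 1.5-fold lower were 3, 4 and 13, with 1 higher in αA against N. The shares of all genes set beside list counts, here and below, are on the RPKM scale. None was computed with TMM factors, where the medians of all genes were 0.02, 0.01 and 0.04.

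Among partners of DNMT1, *Hdac1*, a histone deacetylase also in NuRD, had 85.3, 51.3 and 38.2 RPKM in N, αA and PαA, and *Usp7*, a deubiquitinase that acts on UHRF1 and DNMT1, had 18.4, 14.0 and 11.1. Of the 8 partners of the de novo enzymes above RPKM 5, all 8 were lower by RPKM in PαA than in αA, beside 56.9% of all genes. Their median log2 RPKM ratio was -0.25. With TMM factors 7 of the 8 were lower. *Setd2*, which lays down the H3K36 trimethyl mark that DNMT3 enzymes bind, had 5.56, 2.06 and 1.82 RPKM and is 8628 bases long. *Setdb1*, an H3K9 methyltransferase, had 8.14, 5.50 and 4.37.

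All 6 other methyl-CpG readers above RPKM 5 were lower in PαA than in N, beside 66.4% of all genes, with a median log2 ratio of -0.71, while *Mbd2* was higher. By RPKM 4 of these readers passed 1.5-fold, where the background was 28%, and with TMM factors 2 did. *Mbd6* had 8.69, 5.50 and 3.19 RPKM. *Mbd3*, the NuRD subunit that replaces MBD2 and binds methylated DNA poorly, had 39.6, 34.1 and 23.2. *Mbd1* had 10.3, 8.17 and 8.01, and *Mbd4*, a thymine glycosylase, 1.00, 0.528 and 0.550. In the NuRD complex 10 of 11 genes were lower by RPKM in αA than in N, beside 68.1% of all genes. With TMM factors 7 of the 11 genes of this complex were lower. Its remodelling ATPases *Chd4* (39.4, 22.6 and 20.4 RPKM) and *Chd3* (22.6, 13.7 and 11.3) were both more than 1.5-fold lower in αA, a call that *Chd3* lost with TMM factors (-0.56).

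Of the 10 genes of repair after oxidation above RPKM 5, *Gadd45b*, a stress-induced gene linked to demethylation, was lowest relative to N, at 51.9, 17.0 and 15.2 RPKM with an exon length of 1372. *Tdg*, which excises the oxidised bases, had 5.94, 4.87 and 4.02. *Idh2*, a mitochondrial source of 2-oxoglutarate, which TET enzymes need, had 12.1 RPKM in N, 12.2 in αA and 6.91 in PαA. *D2hgdh*, which removes the TET inhibitor D-2-hydroxyglutarate, had 5.04, 5.60 and 3.06. Genes of methyl donor supply had medians of -0.07, 0.09 and -0.06 in the 3 comparisons, of which the first and last were positive under TMM factors (0.09 and 0.17), and none passed 1.5-fold.

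**Figure D5:**
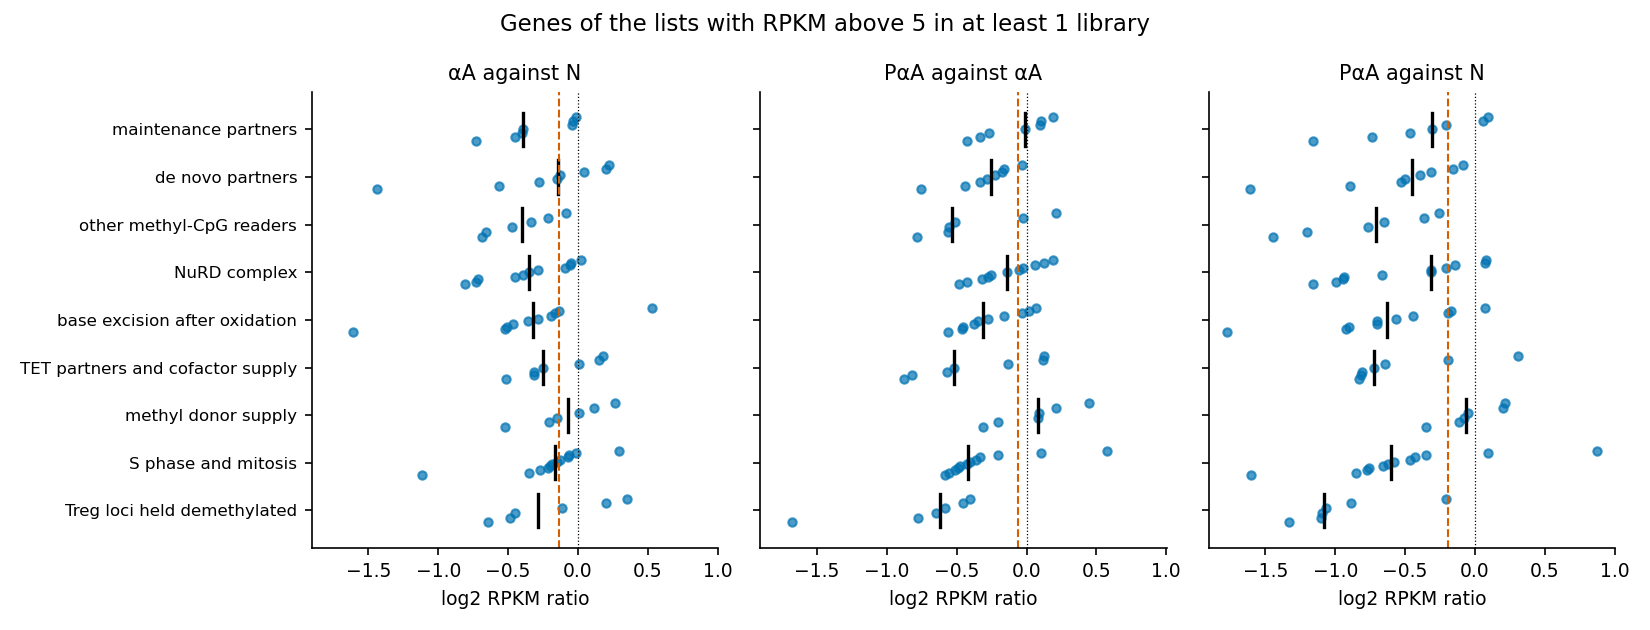
Log2 RPKM ratio of each list gene that exceeded 5 RPKM in some library. Shown are the 7 pathway lists, the S phase and mitosis genes and the Treg loci. Each point is 1 gene, black bars are list medians, the dashed line is the median of the 7017 genes above 5 RPKM in some library. In PαA against N the medians of the lists shown run from -1.08 for the Treg loci to -0.06 for methyl donor supply.

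*Dnmt1* and *Uhrf1* are made mainly in S phase, so genes of replication and mitosis were set beside them. In αA against N 11 of 12 such genes above RPKM 5 were lower, beside 68.1% of all genes. Their median was -0.17 (6 of 12 lower and -0.01 with TMM factors), and *Top2a* (10.5, 4.87 and 3.47 RPKM) alone passed 1.5-fold. *Dnmt1*, at -0.91, was thus lower than this list's median, and *Uhrf1*, at -0.27, was near it. In PαA against αA 10 of 12 were lower, beside 56.9% of all genes, with a median of -0.42, against -0.53 for *Uhrf1* and 0.09 for *Dnmt1*. *Mcm6*, a subunit of the replicative helicase, had 66.6, 63.4 and 44.6 RPKM, and *Pcna*, the sliding clamp, 153, 152 and 163. Of the E2F family, *E2f2* had 8.82, 10.8 and 16.1 RPKM and *E2f1* had 2.89, 2.70 and 3.08. A link of either to *Dnmt1* or *Uhrf1* was not tested.

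The Treg genes known to be held demethylated were lower in PαA than in αA in 6 of 6 cases, with a median log2 ratio of -0.62, beside 56.9% of all genes. By RPKM 4 of them passed 1.5-fold, where the background was 14.7%, and with TMM factors 2 did. All 10 sort and T cell markers were lower in PαA than in αA too, with a median of -0.46. That list is not independent of the Treg genes, since *Foxp3*, *Il2ra* and *Tnfrsf18* are in both. It also holds the targeted genes *Prdm1* and *Nfatc1*. Its other genes were lower as well, with log2 ratios of -0.22 for *Cd4*, -0.23 for *Cd3d*, -0.44 for *Cd3g*, -0.46 for *Cd3e* and -0.77 for *Cxcr5*. *Ctla4*, an inhibitory receptor, had 148, 188 and 58.7 RPKM. *Foxp3* had the values given above, *Ikzf2*, the gene of Helios, had 32.3, 29.8 and 17.4, and *Il2ra* had 33.5, 38.6 and 29.1. Against N the median of the 6 Treg genes was -0.28 for αA and -1.08 for PαA. DNA methylation itself was not measured in these libraries.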

How the data were processed

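Reads were single-end, trimmed, mapped to GRCm38 and counted by the authors in CLC Genomics Workbench with default settings. The annotation release is not given in the sources used here. The authors deposited counts per gene of exon reads (all and unique), junction reads, intron reads and gene reads, with no normalization. They also deposited RPKM, exon reads scaled to exon length and to a total in which reads outside exons also count, and TPM, which sums to the same value in each library. The 3715 of 25759 genes without exon length were left out.

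Library totals were recovered from exon reads, length and RPKM. Ratios are those of RPKM, with 95% intervals (exact, Clopper-Pearson) from the share of reads that fell in either library. Levels have Poisson intervals. Junction and intron ratios used the same totals. A count of 0 was taken to allow 3 counts. The call followed the filter of the study, more than 5 RPKM in any library and a ratio past 2-fold. Alternatives were TPM, TMM factors (edgeR 4.0.16, R 4.3.3, factors only), median-of-ratios factors, unique reads, pseudocounts of 1 and 0.1, lowess centring on exon length (fraction 0.3), RPKM above 1, no level filter and 1.5-fold. Junction reads, scaled to the total of junction reads, were added as an alternative after seeing the data.

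The 8 genes, the 14 gene lists (148 of 151 genes in the files) and all comparisons were chosen with earlier results of these data known. List genes are named where RPKM was above 5 and the ratio past 1.5-fold, at most 4 per list and comparison, as close relatives of the 8, or as targeted and sort genes. *Tdg*, *Mcm6*, *Pcna*, *E2f1* and *S100a9* were chosen after their values were seen. So were *Jchain*, *Lyz2*, *Nkg7*, *Cd22*, *Cd8b1* and the genes named under other observations outside the likeness rule. Gene positions in the files equalled GENCODE M21 for all 8 genes. Only *Tet1* and *Tet3* overlapped another gene, each with 0 reads. Promoter windows are from RefSeq. Some list genes are counted but not reported singly. Code was tested on simulated counts with known ratios (Python 3.11.15, pandas 2.3.3, scipy 1.17.1, statsmodels 0.14.6).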

Additional observations from a re-analysis of the deposited data

How the results depend on the processing

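With 1 library per genotype no replicate could be left out, and the intervals hold counting error only. No paired analysis was possible because each genotype has 1 library and the result comes from no test. Of 187 single ratios recomputed, 116 stayed within their counting interval and 8 changed sign. The sign changes were *Tet3* after centring on exon length in all 3 comparisons (0.11, 0.15 and 0.30), *Dnmt1* in PαA against αA with TPM (-0.07), *Tet1* in PαA against N with TMM factors (0.06), median-of-ratios factors (0.08) and centring (0.80), and *Dnmt3b* in PαA against N with junction reads (0.87).

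No gene passed 2-fold at RPKM above 5. For αA against N the count was 1 at RPKM above 1 (*Dnmt3b*), 2 with no level filter (*Dnmt3b* and *Tet1*) and 1 at 1.5-fold (*Dnmt1*). For PαA against αA it was 1 at RPKM above 1 and 3 with no level filter (*Dnmt3b*, *Tet1* and *Tet2*). For PαA against N it was 1 with TPM (*Dnmt1*), 1 with junction reads (*Uhrf1*), 1 at RPKM above 1 (*Dnmt3a*), 2 with no level filter (*Dnmt3a* and *Tet2*) and 2 at 1.5-fold. The ratio of *Dnmt3a* fell short of 2-fold once centred on exon length (-0.97).

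Centring on exon length moved the median of the genes to -0.10 for αA against N, -0.12 for PαA against αA and -0.23 for PαA against N. Junction reads scaled to their own total, chosen after seeing the data, gave -0.86 for PαA against αA and -1.04 for PαA against N, each over 6 genes. The 3 genes above RPKM 5 alone gave 0.093 for PαA against αA, and a pseudocount of 1 gave -0.33 for PαA against N. Medians of all genes under TMM factors moved from -0.14 to 0.02 for αA against N. For genes with under 200 reads the intervals are wide, and levels under 1 RPKM limit what can be said of *Tet1*, *Tet2* and *Dnmt3b*.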

Other observations

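Genes of the germline that promoter methylation is known to keep silent in somatic cells were at or near 0 in all 3 libraries. Over 12 such genes the exon reads summed to 10 in N, 8 in αA and 9 in PαA, and 10, 9 and 11 of the 12 genes were at 0 reads. The reads fell mostly on *Dazl* in N (9 reads) and on *Tex101* in αA and PαA (5 and 9 reads).

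Among 5742 genes with RPKM above 5 and at least 100 exon reads in every library, the genes closest to *Dnmt1* in both ratios (αA against N and PαA against αA) were *Rbpj*, *Cast* and *Ankle2*, and 12 genes lay within a log2 distance of 0.1. *Rbpj*, the DNA-binding factor of Notch signalling, had 39.7, 20.5 and 21.6 RPKM in N, αA and PαA, with only 32.8% unique reads in N. The closest to *Uhrf1* were *Sin3a*, *Cflar* and *Ranbp9*, with 78 genes within 0.1, and to *Mbd2* *Slc25a38*, *Psmb3* and *Plekhf2*, with 61. The measure rests on 3 libraries and says nothing of shared control.

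Of genes of the lists below RPKM 5, *Zbtb38*, a methyl-CpG binding zinc finger protein of 8417 bases, had 4.33, 1.505 and 1.02 RPKM, and *Neil3*, a DNA glycosylase, had 54, 11 and 67 exon reads in N, αA and PαA.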
